A study of Dichomitus squalens with 16 samples.

Results

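The transcripts of Dichomitus squalens grown on wood were compared with those of the same fungus on non-woody plant material after 9 days of culture. All libraries sampled on day 9 were taken, 8 of the 16 in the series, and they were placed by their labels. The wood side held 4 libraries, 2 from spruce (Picea abies) sawdust and 2 from aspen (Populus tremula) sawdust. The non-woody side also held 4, with 2 from powdered wheat bran and 2 from powdered cotton seed hulls. Every culture was of strain LYAD-421 SS1, and the labels name no genetic change. The strain was precultured for 4 days at 28 °C in a low-nitrogen asparagine-succinate medium of pH 4.5 with 6.8 mM glycerol, and then received 1 g of substrate in 100 ml of the low-nitrogen medium. RNA was extracted from mycelium of the colonised substrate with CTAB and column purification, and was sequenced by Illumina protocols.

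Dichomitus squalens is a white-rot basidiomycete, a fungus that breaks down all the main polymers of wood. White-rot fungi attack lignin, the aromatic polymer that encrusts plant cell walls, with secreted laccases and heme peroxidases, which draw on hydrogen peroxide from other oxidases. Cellulose, hemicelluloses and pectin are cut by secreted hydrolases, and in many fungi these genes respond to the sugars that a substrate releases. Wheat bran holds starch and protein beside cell walls, and cotton seed hulls hold cellulose, xylan and some lignin, so that both share polymers with wood.

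Levels are RPKM, unique reads divided by the authors by gene model length and by the unique reads of that library. Changes are log2 fold changes ± standard error of the mean of the 2 woods over the mean of the 2 non-woody substrates, so that a positive value means higher on wood. Adjusted p values are from edgeR's quasi-likelihood test of the read counts with Benjamini-Hochberg adjustment over all 10383 genes tested, and a gene was called at an adjusted p under 0.05. The test scales libraries for composition (TMM factors at their lowest 0.825, on cotton seed hulls, and highest on spruce), which RPKM does not, so that RPKM can overlap where the test separates groups. A gene was termed agreeing when it was also called, in 1 direction, in each of the 4 contrasts of 1 wood with 1 non-woody substrate. Libraries held between 8296792 ± 236288 unique reads (mean ± SD, n = 2) on aspen and 8636932 ± 297801 on cotton seed hulls. The 2 libraries of a wood differed more than those of a non-woody substrate, with a biological coefficient of variation of 0.164 on spruce and 0.152 on aspen, but 0.0525 for wheat bran and 0.0453 for cotton seed hulls. The labels do not say that replicates were separate cultures, so that p measures the spread between these libraries, which may be technical, and says nothing about other woods. In bulk RNA, fewer cells of a kind and less RNA per cell cannot be told apart.

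On day 9 most of the transcriptome differed between wood and non-woody substrates. Of 10383 genes tested, 7177 were called (69.1 %), with 3646 higher on wood (35.1 %) and 3531 lower (34.0 %). The median change over all genes was 0.02 and the median absolute change 0.55. Changes of at least 2-fold were seen in 1514 genes higher on wood (14.6 %) and 1376 lower (13.3 %). Almost no transcript was seen on 1 side alone. A single gene had at least 5 reads in each wood library and 0 in the non-woody ones, an undescribed gene (DICSQDRAFT_175886) at 2.06 to 3.28 RPKM on wood, and no gene met the reverse condition. The centre of the comparison depends on scaling. When libraries were scaled by size alone, the median of all genes went from 0.02 to 0.31 and 69.2 % of the called genes were higher on wood instead of 50.8 %. The 100 genes with the most reads took 21.9 to 25.5 % of the reads of the wood libraries and 31.1 to 32.9 % of those of the non-woody libraries.

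Both woods differed from both non-woody substrates in 1973 genes that were higher on wood (19.0 % of genes tested) and 1929 that were lower (18.6 %). These agreeing genes made up 54.1 % of the genes called higher and 54.6 % of those called lower. The smallest of the 4 contrasts was at least 2-fold for 840 agreeing genes that were higher (8.09 %) and 792 that were lower (7.63 %), and 456 and 483 of these have no informative description. RPKM of the 4 wood libraries all lay above those of the 4 non-woody libraries in 3835 genes (36.9 %) and below them in 1659 (16.0 %). All 1973 agreeing genes that were higher were free of overlap, and so were 1536 of the 1929 that were lower (79.6 %). When each substrate was counted as 1 replicate, 2 woods against 2 non-woody substrates, 2813 genes were called, 1471 higher (14.2 %) and 1342 lower (12.9 %).

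The contrasts were also set side by side in pairs that share no library. Spruce against wheat bran and aspen against cotton seed hulls correlated across the 10383 genes with Pearson's r of 0.869 and Spearman's rho of 0.822. Of 4702 genes called in both, 4605 (97.9 %) went in 1 direction and 97 in opposite directions. For the other pair, spruce against cotton seed hulls and aspen against wheat bran, r was 0.804 and rho 0.732, and 4330 of 4594 genes called in both (94.3 %) went in 1 direction. Genes are not independent replicates, and all contrasts share 1 scaling. Differences within a class were smaller. The median absolute change was 0.24 for the 2 woods and 0.32 for the 2 non-woody substrates, against 0.53 to 0.63 in the 4 contrasts of a wood with a non-woody substrate. Between the woods 543 genes were higher on spruce (5.23 %) and 905 on aspen (8.72 %), and between the non-woody substrates 1192 were higher with wheat bran (11.5 %) and 1614 with cotton seed hulls (15.5 %).

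**Figure D1:**
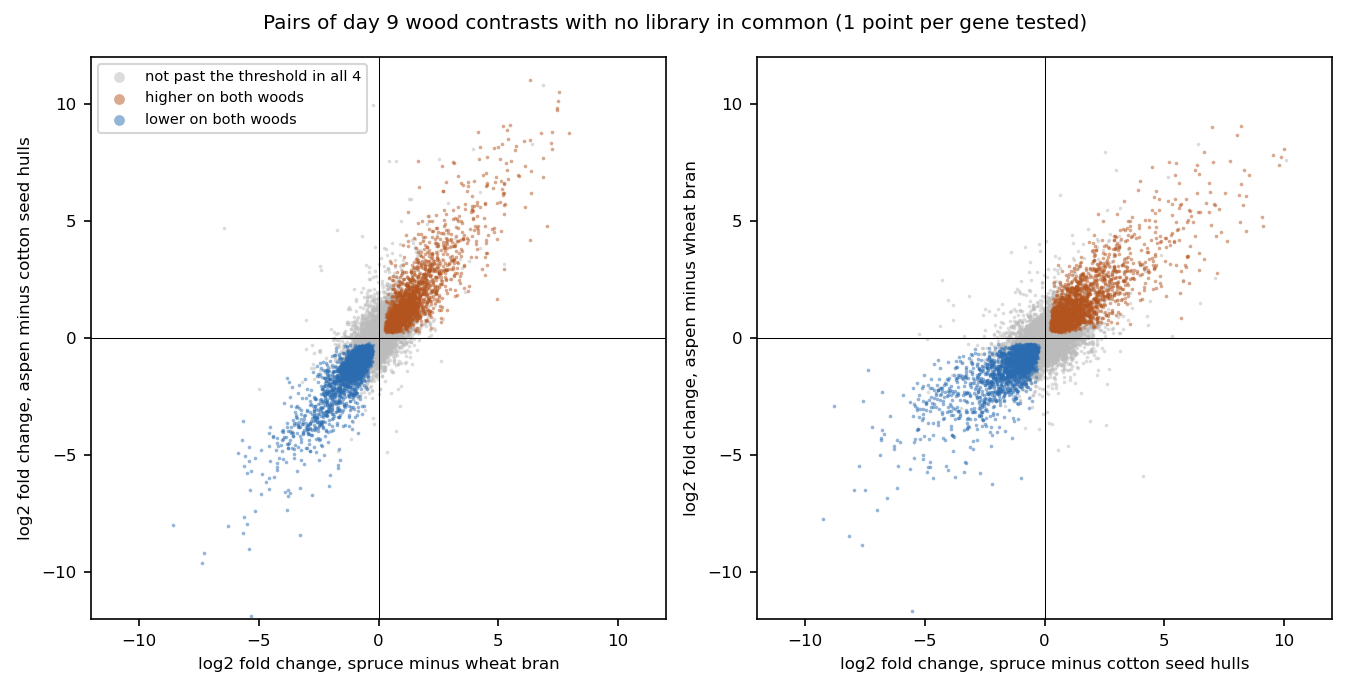
Log2 fold changes of all genes tested (1 point per gene) for the 2 pairs of contrasts that share no library; the axes give a contrast of spruce and a contrast of aspen with a non-woody substrate. Points lie along the diagonal, with r of 0.869 and 0.804.

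The genes furthest apart with higher levels on wood include 2 laccases and 2 genes described as cytochrome P450. Among the 12 described genes with the largest smallest contrast, norsolorinic acid reductase (DICSQDRAFT_66487), an aldo/keto reductase named after an enzyme of aflatoxin synthesis in Aspergillus, was at 666 and 732 RPKM in the spruce libraries, 689 and 744 in aspen, 4.27 and 2.11 in wheat bran, and 0.793 and 0.208 in cotton seed hulls (log2 change 8.81 ± 0.25, adjusted p = 1.31e-08). All 4 wood libraries were close together and each non-woody library was near 0. A cytochrome P450 (DICSQDRAFT_172711), of a family of heme enzymes that add oxygen to small molecules, was at 214 and 205 RPKM in the spruce libraries, 232 and 247 in aspen, 1.90 and 1.27 in wheat bran, and 0.471 and 0.412 in cotton seed hulls (7.75 ± 0.13, adjusted p = 2.28e-11). An alpha/beta-hydrolase (DICSQDRAFT_172714) was at 85.4 and 77.8 RPKM in the spruce libraries, 86.9 and 82.6 in aspen, 0.975 and 0.657 in wheat bran, and 0.464 and 0.487 in cotton seed hulls (6.74 ± 0.13, adjusted p = 2.28e-11). The 14 alpha-demethylase (DICSQDRAFT_147974), named after the P450 enzyme of ergosterol synthesis, changed by 6.39 ± 0.21, the P450 DICSQDRAFT_109788 by 5.90 ± 0.13 and the subtilisin-like protease DICSQDRAFT_52085 by 5.71 ± 0.12. The rule that chose these 6 genes required that the wood and non-woody libraries did not overlap.

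Other genes of this group also differed strongly between the libraries of 1 wood. The nitroreductase (DICSQDRAFT_69755), a flavoenzyme that reduces nitro groups and quinones, was at 4319 and 551 RPKM in the spruce libraries, 11244 and 3325 in aspen, 17.2 and 9.11 in wheat bran, and 12.9 and 13.3 in cotton seed hulls (8.01 ± 1.11, adjusted p = 0.00298). Replicate 1 was the higher of the 2 libraries on both woods. That the lowest wood library stood above every non-woody library was required by the rule that chose the gene. The prenyltransferase of the UbiA family (DICSQDRAFT_81420), which attaches isoprenoid chains to aromatic rings, was at 396 and 88.5 RPKM in the spruce libraries, 932 and 355 in aspen, 1.05 and 1.21 in wheat bran, and 0.697 and 0.418 in cotton seed hulls (8.62 ± 0.98, adjusted p = 0.00144). The HAD-like proteins DICSQDRAFT_72440 (8.34 ± 0.93) and DICSQDRAFT_82605 (6.11 ± 0.39), members of a large hydrolase superfamily, also had replicate 1 above replicate 2 on both woods. Genes with a gap of at least 2-fold between replicates numbered 302 for spruce, 293 for aspen, 96 for wheat bran and 173 for cotton seed hulls. In 47 genes replicate 1 was higher by that factor on both woods, in 31 replicate 2 was, and in 5 the woods went opposite ways. Of the 47, 12 were agreeing genes higher on wood, as were 19.0 % of all genes tested. Among the 47, 4 encode cytochrome P450 proteins and 5 glutathione S-transferases, of which 151 and 16 were tested in all. The calls of the nitroreductase, the prenyltransferase and both HAD-like proteins were kept when any 1 library was left out.

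By abundance, the agreeing genes at least 2-fold higher on wood were led by a dye-decolorizing peroxidase. The DyP-type peroxidase (DICSQDRAFT_150405), a heme peroxidase that oxidises dyes and aromatic compounds, was at 11369 and 7427 RPKM in the spruce libraries, 8092 and 6009 in aspen, 939.7 and 878 in wheat bran, and 132 and 122 in cotton seed hulls (4.28 ± 0.16, adjusted p = 1.43e-09). Wheat bran lay above cotton seed hulls (contrast 2.59 ± 0.22, adjusted p = 1.42e-05), and both lay below every wood library. Its reads were 0.873 to 1.65 % of each wood library against 0.0177 to 0.136 % of the non-woody ones. Thiol methyltransferase 1 (DICSQDRAFT_183726), which methylates thiols and halides, was at 1776 and 826 RPKM in the spruce libraries, 2719 and 2166 in aspen, 57.9 and 72.8 in wheat bran, and 67.4 and 76.6 in cotton seed hulls (4.40 ± 0.28, adjusted p = 1.67e-05). A protein with an FAD/NAD(P)-binding domain (DICSQDRAFT_68354) was at 2321 and 658 RPKM in the spruce libraries, 3085 and 1284 in aspen, 33.9 and 30.1 in wheat bran, and 39.8 and 47.6 in cotton seed hulls (5.28 ± 0.61, adjusted p = 0.00132). For both, replicate 1 was the higher on each wood. The rule that chose the genes of this paragraph required that no wood library overlapped the non-woody ones. A GroES-like protein (DICSQDRAFT_129544) changed less (1.24 ± 0.11). The undescribed gene with the largest smallest contrast (DICSQDRAFT_161457) was at 384 and 209.9 RPKM in the spruce libraries, 463 and 279 in aspen, 1.69 and 0.904 in wheat bran, and 0 and 0.375 in cotton seed hulls (9.03 ± 0.50, adjusted p = 3.08e-05).

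The 12 described genes furthest apart with lower levels on wood include 2 hydrophobins, cellobiohydrolase II, xylanase C, a beta-1,3-glucanase and glyoxal oxidase. Glyoxal oxidase (DICSQDRAFT_167685), a copper enzyme that makes hydrogen peroxide from aldehydes, was at 2.71 and 2.77 RPKM in the spruce libraries, 1.99 and 1.70 in aspen, 378 and 377 in wheat bran, and 1164 and 1176 in cotton seed hulls (-8.50 ± 0.11, adjusted p = 3.19e-12). An FAD-dependent oxidoreductase (DICSQDRAFT_157633) was at 5.53 and 6.63 RPKM in the spruce libraries, 4.53 and 7.07 in aspen, 1843 and 2019.7 in wheat bran, and 1129.6 and 1279 in cotton seed hulls (-8.29 ± 0.18, adjusted p = 3.42e-11). For the latter the aspen replicates were 4.53 and 7.07 RPKM, but for both genes the classes lay far apart, and glyoxal oxidase was lower on wheat bran than on cotton seed hulls (contrast -1.88 ± 0.11, adjusted p = 1.06e-06). A metalloprotease (DICSQDRAFT_131350) was at 89.2 and 90.8 RPKM in the spruce libraries, 39.7 and 27.5 in aspen, 2761 and 2592 in wheat bran, and 4329 and 4533 in cotton seed hulls (-6.27 ± 0.14, adjusted p = 3.42e-11). A thaumatin-like protein (DICSQDRAFT_152858), of a family that includes beta-glucan-binding proteins, was at 65.8 and 48.1 RPKM in the spruce libraries, 74.6 and 54.2 in aspen, 2098 and 1828 in wheat bran, and 4675 and 4634 in cotton seed hulls (-5.94 ± 0.15, adjusted p = 7.79e-11). For both, the cotton seed hulls libraries were the highest and the wood libraries the lowest. A ricin B-like protein (DICSQDRAFT_172703), of a lectin fold that binds sugars, changed by -5.33 ± 0.15, and the alpha/beta-hydrolases DICSQDRAFT_65706 and DICSQDRAFT_83088 by -5.55 ± 0.24 and -4.26 ± 0.12. The undescribed gene with the largest smallest contrast (DICSQDRAFT_63786) was at 6.66 and 8.52 RPKM in the spruce libraries, 2.85 and 1.56 in aspen, 935 and 1009 in wheat bran, and 1064 and 1019 in cotton seed hulls (-8.24 ± 0.14, adjusted p = 2.28e-11). Its description carries the number of another gene (DICSQDRAFT_137883), as do those of 24 of 6938 genes with such a number.

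**Figure D2:**
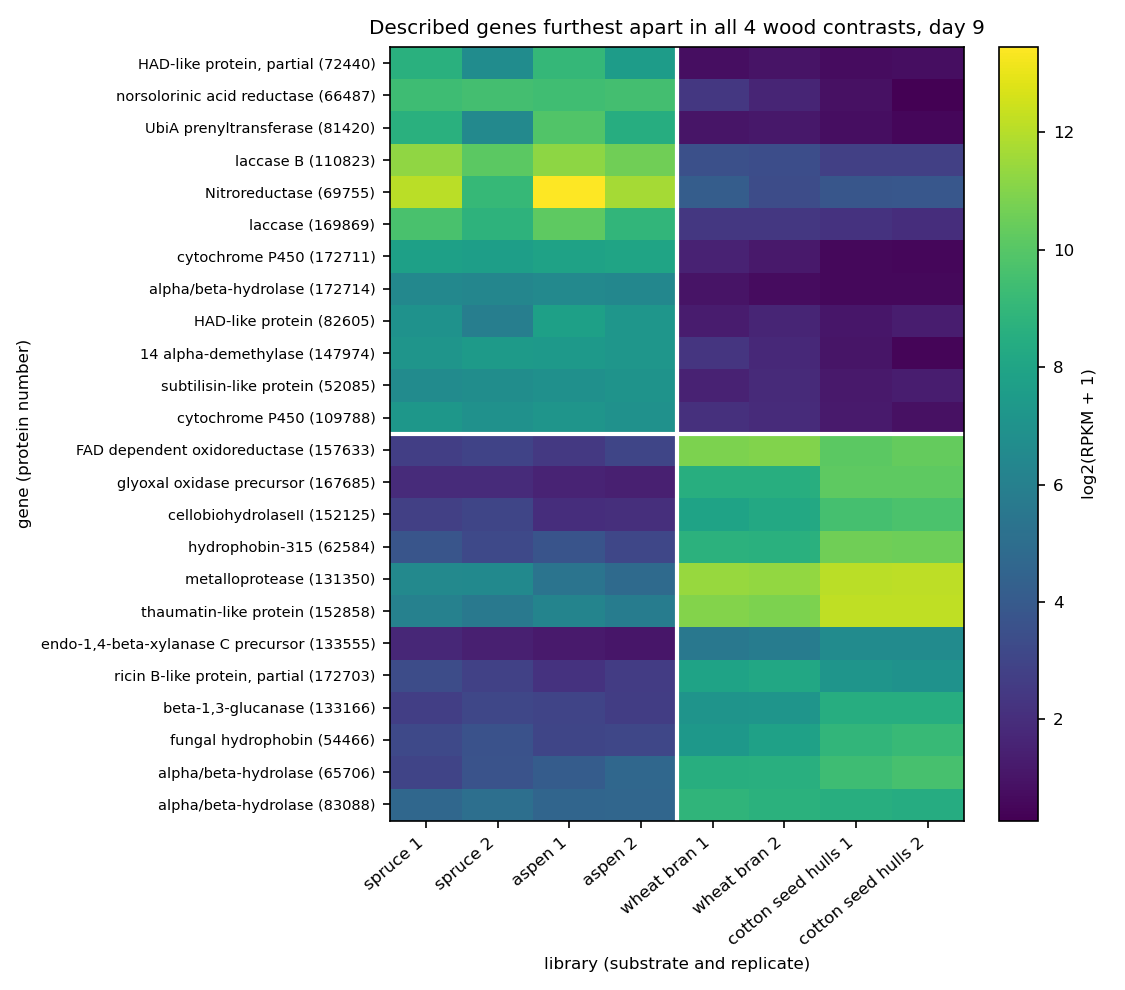
Levels as log2(RPKM + 1) of the 12 described genes in each direction with the largest smallest contrast (rows) in the 8 day 9 libraries (columns); the white lines part higher from lower genes and wood from non-woody libraries. The rule that chose the genes required the wood libraries to lie on 1 side of the non-woody ones. Spruce replicate 2 is the lowest wood library for the nitroreductase and the UbiA prenyltransferase.

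Gene lists were built from the descriptions and are given by their counts of called members. Of all genes, 35.1 % were higher and 34.0 % lower. The closer comparison for the lists is with the 4331 tested genes with an informative description. Of these, 41.68 % were higher and 30.04 % lower. Counts are over members that passed the filter on low counts, such as 151 of 158 cytochrome P450 proteins and 73 of 86 HET-domain proteins. With each substrate as 1 replicate, 14.2 % of all genes were called higher and 12.9 % lower. Among the 4331 genes with an informative description, 735 were called higher and 504 lower. Most list counts also shrank. Members lower then numbered 0 of 3 for lytic polysaccharide monooxygenases, 4 of 9 for endoglucanases, 3 of 6 for cellobiohydrolases, 3 of 7 for pectinases, 4 of 14 for hydrophobins, 2 of 10 for sugar transporters and 3 of 4 for mannanases and galactosidases. Members higher then numbered 26 of 76 for ribosomal proteins, 7 of 25 for glycolysis, 1 of 12 for housekeeping genes, 5 of 12 for laccases and multicopper oxidases, 37 of 151 for cytochrome P450 proteins and 16 of 17 for the proteasome. Lignin-modifying oxidases went in both directions. Laccases and multicopper oxidases, which take electrons from phenols by way of copper ions, counted 8 higher and 2 lower among 12 members (median 2.05). Laccase B (DICSQDRAFT_110823) was at 2498 and 1114 RPKM in the spruce libraries, 2366 and 1531 in aspen, 10.2 and 9.58 in wheat bran, and 5.81 and 5.83 in cotton seed hulls (7.65 ± 0.36, adjusted p = 4.58e-06). Laccase DICSQDRAFT_169869 was at 807 and 436 RPKM in the spruce libraries, 1175 and 502 in aspen, 4.41 and 4.32 in wheat bran, and 3.54 and 2.96 in cotton seed hulls (7.27 ± 0.45, adjusted p = 6.50e-05), and laccase DICSQDRAFT_176907 at 259 and 269 RPKM in the spruce libraries, 1108 and 1345 in aspen, 6.81 and 5.99 in wheat bran, and 5.26 and 4.68 in cotton seed hulls (6.36 ± 0.13, adjusted p = 3.23e-11). No difference between the woods was called for the first pair (adjusted p = 0.637 and 0.435), whereas DICSQDRAFT_176907 was lower on spruce than on aspen (contrast -2.43 ± 0.15, adjusted p = 1.35e-05). Reads of the 12 genes were 0.353 to 0.943 % of the wood libraries and 0.0133 to 0.0189 % of the non-woody ones. Class II peroxidases, the heme enzymes that include manganese and lignin peroxidases, had 3 of 12 members higher and 4 lower (median 0.10), of which 1 and 2 were agreeing. The manganese peroxidase DICSQDRAFT_59877 was at 103 and 124 RPKM in the spruce libraries, 428 and 721 in aspen, 13.4 and 14.9 in wheat bran, and 17.8 and 15.6 in cotton seed hulls (3.76 ± 0.22, adjusted p = 8.04e-06), with aspen above spruce (-2.56 ± 0.28, adjusted p = 0.00279). Another (DICSQDRAFT_141471) was at 5.94 and 9.91 RPKM in the spruce libraries, 3.56 and 2.35 in aspen, 132 and 114 in wheat bran, and 96.3 and 93.7 in cotton seed hulls (-4.78 ± 0.18, adjusted p = 9.26e-08), all wood libraries below all non-woody ones.

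Enzymes that supply hydrogen peroxide were split. Of the 9 copper radical oxidases, 2 were higher and 4 lower (median -0.26, and 0.03 with library size alone). Galactose oxidase DICSQDRAFT_131172 was at 123 and 133 RPKM in the spruce libraries, 140.1 and 132 in aspen, 48.7 and 44.7 in wheat bran, and 46.0 and 43.9 in cotton seed hulls (1.23 ± 0.071, adjusted p = 3.90e-08), the opposite direction to glyoxal oxidase. Among 31 GMC oxidoreductases, a flavoenzyme family of alcohol and aryl-alcohol oxidases, 18 were higher and 6 lower (median 0.72), while their summed reads were 0.400 to 0.523 % of the wood libraries and 2.47 to 2.60 % of the non-woody ones. The most abundant member, alcohol oxidase DICSQDRAFT_181599, which stood at 1078 and 1161 RPKM in the spruce libraries, 545 and 239.6 in aspen, 10490.1 and 10643 in wheat bran, and 11007 and 10882 in cotton seed hulls (-4.33 ± 0.24, adjusted p = 1.19e-07), was lower on wood, and lower on aspen than on spruce (contrast 1.32 ± 0.30, adjusted p = 0.0182). Alcohol oxidase DICSQDRAFT_135958 was at 212 and 177 RPKM in the spruce libraries, 208 and 211 in aspen, 32.5 and 41.0 in wheat bran, and 48.7 and 52.2 in cotton seed hulls (1.93 ± 0.094, adjusted p = 9.50e-09). Catalase DICSQDRAFT_82531, which removes hydrogen peroxide, was at 1198 and 1243 RPKM in the spruce libraries, 1058 and 811 in aspen, 3208 and 3266 in wheat bran, and 3345 and 3403 in cotton seed hulls (-1.93 ± 0.12, adjusted p = 7.08e-08), while manganese superoxide dismutase DICSQDRAFT_70280, which forms it from superoxide, changed by 0.86 ± 0.12. Among 23 thioredoxin, catalase and superoxide dismutase genes 15 were higher and 4 lower (median 0.63).

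Families that oxidise, couple or export small molecules differed in their shares of members higher on wood. The shares were 47.0 % for cytochrome P450 proteins and 66.7 % for drug transporters. Of all genes 35.1 % were higher, and of genes with an informative description 41.7 %. Glutathione S-transferases and aldo/keto reductases had shares below both values. Of 151 cytochrome P450 proteins, 71 were higher and 35 lower (median 0.34). The P450 DICSQDRAFT_168992 was at 763 and 832 RPKM in the spruce libraries, 1162 and 1083 in aspen, 99.6 and 87.1 in wheat bran, and 24.4 and 21.2 in cotton seed hulls (4.06 ± 0.099, adjusted p = 5.34e-11), and DICSQDRAFT_154131, the other abundant member, at 384 and 477 RPKM in the spruce libraries, 372 and 315 in aspen, 842 and 887 in wheat bran, and 549 and 524 in cotton seed hulls (-1.12 ± 0.097, adjusted p = 1.27e-06), so that the 2 lay on opposite sides. Of 9 ABC and drug transporters, pumps that export compounds from the cell, 6 were higher and 1 lower (median 0.69). With each substrate as 1 replicate 3 were higher. The member that was lower, the HlyB/MsbA family transporter DICSQDRAFT_163996, was agreeing (-0.65 ± 0.071, adjusted p = 8.97e-06). The pleiotropic drug resistance transporter DICSQDRAFT_59582 was at 177 and 94.9 RPKM in the spruce libraries, 278 and 184 in aspen, 3.15 and 4.02 in wheat bran, and 3.22 and 3.57 in cotton seed hulls (5.36 ± 0.28, adjusted p = 8.18e-06). Glutathione S-transferases, which couple glutathione to reactive compounds, counted 5 higher and 2 lower among 16 (median 0.26), a share higher of 31.3 %, below that of all genes. The most abundant member DICSQDRAFT_171068 was at 1091 and 159 RPKM in the spruce libraries, 296 and 86.1 in aspen, 360.1 and 342 in wheat bran, and 438 and 397 in cotton seed hulls and was not called (-0.46 ± 0.74, adjusted p = 0.617), with replicate 1 of each wood above replicate 2. The next, DICSQDRAFT_110722, was agreeing and higher on wood (2.98 ± 0.48, adjusted p = 0.00445), also with replicate 1 above replicate 2 on each wood. Summed reads of the list were 0.0747 to 0.246 % of the wood libraries and 0.0616 to 0.0668 % of the non-woody ones. Aldo/keto reductases had 15 of 46 higher (32.6 %, also below it) and 12 lower (median 0.12), and Clavaminate synthase-like proteins, oxygenases, 16 of 38 higher and 12 lower (median 0.19). DICSQDRAFT_181576 of the latter was at 531 and 614 RPKM in the spruce libraries, 542 and 607 in aspen, 25.1 and 18.2 in wheat bran, and 7.98 and 8.92 in cotton seed hulls (5.11 ± 0.14, adjusted p = 1.87e-10).

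Enzymes that cut cellulose were mostly lower on wood. Cellobiohydrolases, which release cellobiose from chain ends, had 1 of 6 members higher and 5 lower (median -3.25), of which 4 were agreeing. Cellobiohydrolase II (DICSQDRAFT_152125) was at 5.76 and 7.12 RPKM in the spruce libraries, 3.06 and 3.20 in aspen, 238 and 298 in wheat bran, and 755 and 856 in cotton seed hulls (-6.99 ± 0.13, adjusted p = 2.28e-11). Cellobiohydrolase I (DICSQDRAFT_131122) was at 10.5 and 12.4 RPKM in the spruce libraries, 4.27 and 5.29 in aspen, 26.5 and 51.8 in wheat bran, and 191 and 251 in cotton seed hulls (-3.94 ± 0.28, adjusted p = 5.38e-05). Both were highest on cotton seed hulls, with contrasts of wheat bran with cotton seed hulls of -1.83 ± 0.14, adjusted p = 7.07e-06 and -2.74 ± 0.35, adjusted p = 0.00393. The list also holds enzymes described as specific for the reducing ends of oligoxyloglucan, whose substrate is xyloglucan. Of 9 endoglucanases, which cut within the chain, 1 was higher and 8 lower (median -2.78). The abundant members, barwin-like proteins, were lower by less than the median of the list, with DICSQDRAFT_47249 at -0.50 ± 0.094 and DICSQDRAFT_49028 at -0.92 ± 0.12. Their calls were lost with each substrate as 1 replicate (adjusted p = 0.231 and 0.13). All 3 lytic polysaccharide monooxygenases, copper enzymes that oxidise crystalline polysaccharide, were lower (median -1.54), and 1 was agreeing. DICSQDRAFT_108020 was at 6.64 and 7.28 RPKM in the spruce libraries, 6.04 and 5.13 in aspen, 14.2 and 17.6 in wheat bran, and 58.6 and 61.5 in cotton seed hulls (-2.60 ± 0.092, adjusted p = 6.75e-10, and adjusted p = 0.0563 with each substrate as 1 replicate). Beta-glucosidases, which split cellobiose, had 1 of 6 higher and 3 lower (median -0.17, and 0.13 with library size alone). DICSQDRAFT_64087 was at -2.26 ± 0.10.

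Enzymes for mannan, pectin and starch were mostly lower on wood, while xylan enzymes were mixed. Xylanase C (DICSQDRAFT_133555) was at 2.35 and 1.68 RPKM in the spruce libraries, 1.34 and 1.07 in aspen, 46.3 and 54.8 in wheat bran, and 99.6 and 97.6 in cotton seed hulls (-5.79 ± 0.12, adjusted p = 3.23e-11), although the 5 xylan enzymes had 1 higher and 2 lower (median 0.06). Beta-xylosidase DICSQDRAFT_158716 was at -2.50 ± 0.11 (adjusted p = 0.0689 with each substrate as 1 replicate). All 4 mannanases and galactosidases, which cut mannan and its side chains, were lower and agreeing (median -2.14). CEL4a mannanase (DICSQDRAFT_132822) was at 7.06 and 9.04 RPKM in the spruce libraries, 8.51 and 6.37 in aspen, 98.5 and 110.4 in wheat bran, and 219 and 213 in cotton seed hulls (-4.58 ± 0.11, adjusted p = 4.57e-11). Pectinases had 6 of 7 members lower and 0 higher (median -2.14). Endo-polygalacturonase PG1 (DICSQDRAFT_154984), which cuts the pectin backbone, was at 0.707 and 1.66 RPKM in the spruce libraries, 1.07 and 1.54 in aspen, 10.4 and 8.47 in wheat bran, and 366 and 368 in cotton seed hulls (-5.85 ± 0.18, adjusted p = 1.76e-09), with its highest levels on cotton seed hulls (contrast -5.52 ± 0.20, adjusted p = 2.14e-07) and an adjusted p of 0.0757 with each substrate as 1 replicate. Amylases and glucoamylases, which release glucose from starch, had 3 of 4 lower and 1 higher (median -2.65). Alpha-amylase DICSQDRAFT_84199 was at 36.1 and 41.3 RPKM in the spruce libraries, 38.8 and 39.1 in aspen, 485 and 491 in wheat bran, and 591 and 576 in cotton seed hulls (-4.08 ± 0.09, adjusted p = 3.42e-11), and glucoamylase DICSQDRAFT_134993 changed by -3.87 ± 0.08. Every wood library lay below every non-woody library for both. Of 34 glycoside hydrolases with a named family 21 were lower and 8 higher (median -1.17), and the GH76 protein DICSQDRAFT_180416 was at -5.40 ± 0.096. Of 47 without one, 22 were lower and 14 higher (median -0.11), but 20 lower and 21 higher with library size alone (median 0.19).

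Among genes for uptake and digestion of protein, fat and sugar, lipases and sugar transporters were mostly lower on wood, and the balance for proteases and general transporters turned with scaling. Of 84 secreted proteases 40 were lower on wood and 24 higher (median -0.21), but with library size alone 31 were lower and 38 higher (median 0.08). The S53 protease DICSQDRAFT_182861, a secreted acid protease, was at 179.9 and 348 RPKM in the spruce libraries, 38.3 and 33.7 in aspen, 2099 and 2089.8 in wheat bran, and 2459 and 2424 in cotton seed hulls (-4.83 ± 0.22, adjusted p = 9.28e-08), and spruce lay above aspen (contrast 2.67 ± 0.28, adjusted p = 6.90e-04). Lipases and esterases had 13 of 19 lower and 4 higher (median -1.43). Lipase DICSQDRAFT_71343 changed by -2.61 ± 0.083 and the extracellular triacylglycerol lipase DICSQDRAFT_137620 by -4.83 ± 0.20. Sugar transporters had 7 of 10 lower and 2 higher (median -0.90), and 4 of the 7 were agreeing. Their reads were 0.219 to 0.258 % of the wood libraries, 0.213 and 0.218 % of wheat bran, and 0.351 and 0.357 % of cotton seed hulls. MFS monosaccharide transporter DICSQDRAFT_153259 was at 405 and 480.0 RPKM in the spruce libraries, 681 and 714 in aspen, 544 and 546 in wheat bran, and 1209 and 1261 in cotton seed hulls (-0.86 ± 0.094, adjusted p = 9.00e-06) and had an adjusted p of 0.305 with each substrate as 1 replicate. The next most abundant, hexose transporter DICSQDRAFT_89149, changed by -0.65 ± 0.081. Neither was called for aspen against wheat bran (adjusted p = 0.0802 and 0.101). Among 137 MFS general transporters 52 were lower and 41 higher (median -0.08), but with library size alone 39 were lower and 59 higher (median 0.22). The oligopeptide transporter DICSQDRAFT_82049 was at 654 and 592 RPKM in the spruce libraries, 735 and 718 in aspen, 2423 and 2379.5 in wheat bran, and 1570.3 and 1565 in cotton seed hulls (-1.82 ± 0.094, adjusted p = 1.62e-08), and the OPT transporter DICSQDRAFT_94742 at -3.44 ± 0.13. Of all 39 peptide and amino acid transporters 17 were higher and 12 lower (median 0.16). The ammonium transporter DICSQDRAFT_112666 was at 635 and 629.6 RPKM in the spruce libraries, 521 and 501 in aspen, 137 and 130.1 in wheat bran, and 73.3 and 68.3 in cotton seed hulls (2.25 ± 0.076, adjusted p = 4.91e-10), the opposite direction to these 2 peptide transporters. The 14 nitrogen uptake genes had 7 higher and 5 lower (median 0.27). Among the 5, the formate/nitrite transporter DICSQDRAFT_91761 was lower on wood (-0.53 ± 0.096, adjusted p = 4.83e-04), though not agreeing. Alpha/beta-hydrolases had 30 of 81 higher and 26 lower (median 0.14), and HET-domain proteins, named for fungal self-recognition genes, 24 of 73 higher and 20 lower (median 0.09), both near the shares over all genes.

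Chitin and wall enzymes and hydrophobins were mostly lower on wood. Of 11 chitin and fungal wall enzymes, 10 were lower and 1 higher (median -1.24). Chitin synthase DICSQDRAFT_165065 was at 291 and 315 RPKM in the spruce libraries, 283 and 344 in aspen, 561 and 556 in wheat bran, and 648 and 609.6 in cotton seed hulls (-1.24 ± 0.10, adjusted p = 7.69e-07). Chitinase DICSQDRAFT_69100 was at 25.1 and 46.0 RPKM in the spruce libraries, 19.4 and 16.8 in aspen, 723 and 683 in wheat bran, and 248 and 231 in cotton seed hulls (-4.31 ± 0.19, adjusted p = 5.03e-07), with wheat bran above cotton seed hulls (contrast 1.31 ± 0.23, adjusted p = 0.00668). Hydrophobins, which assemble into water-repellent films on hyphae, had 9 of 14 lower and 1 higher (median -1.25), and 4 of the 9 were agreeing. Hydrophobin-315 (DICSQDRAFT_62584) was at 12.3 and 7.92 RPKM in the spruce libraries, 11.9 and 7.52 in aspen, 423 and 398 in wheat bran, and 1569 and 1513 in cotton seed hulls (-6.62 ± 0.13, adjusted p = 3.23e-11). The hydrophobin DICSQDRAFT_54693 was at 63.6 and 138 RPKM in the spruce libraries, 413 and 1210.4 in aspen, 454 and 460.4 in wheat bran, and 1015 and 966 in cotton seed hulls (-1.52 ± 0.47, adjusted p = 0.0423), with spruce low, the 2 aspen libraries far apart, and the classes overlapping. Its call was lost without any 1 of the spruce, wheat bran or cotton seed hulls libraries. The list of fruiting, mating and spore genes, 14 genes of which 13 were tested, had 6 members lower and 3 higher (median -0.40). Their summed level was 695 to 1029 RPKM on wood and 1380 to 6485 RPKM on non-woody substrates. The untested member, ricin B-like lectin DICSQDRAFT_35913, had at most 1 read in a library. Ricin B-like lectins carried most of the non-woody sum, DICSQDRAFT_172724 and DICSQDRAFT_172726 on wheat bran and DICSQDRAFT_172724 on cotton seed hulls. DICSQDRAFT_172724 was at 409.6 and 477 RPKM in the spruce libraries, 485 and 509.8 in aspen, 5195 and 5109 in wheat bran, and 1379 and 1233 in cotton seed hulls (-2.76 ± 0.096, adjusted p = 5.99e-10), and DICSQDRAFT_172726 at 13.2 and 17.1 RPKM in the spruce libraries, 19.3 and 19.7 in aspen, 1129 and 1050.4 in wheat bran, and 0.689 and 0.482 in cotton seed hulls. The 1 member described as a fruiting body protein, SC1 (DICSQDRAFT_24343), went the other way, at 22.1 and 27.5 RPKM in the spruce libraries, 23.0 and 71.6 in aspen, 3.02 and 3.27 in wheat bran, and 2.51 and 1.88 in cotton seed hulls (3.40 ± 0.56, adjusted p = 0.00181). SC1 was not counted among the 14 hydrophobins tested, whose highest change was 0.69. The other members of the fruiting, mating and spore list are lectins and lectin/glucanase-like proteins, which are not specific to fruiting, and pheromone receptors. The part of these genes in the hydrophobin and wall results was not tested.

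Lists for protein turnover, ribosomes, sterol synthesis and glycolysis had more members higher on wood than lower. All 17 proteasome genes, which encode the protease that degrades ubiquitin-tagged proteins, were higher and agreeing (median 1.45). The proteasome assembly factor UMP1 (DICSQDRAFT_113392) was at 395 and 417 RPKM in the spruce libraries, 427 and 374 in aspen, 143 and 139 in wheat bran, and 121 and 141 in cotton seed hulls (1.27 ± 0.076, adjusted p = 5.62e-08). Ribosomal proteins had 59 of 76 higher and 8 lower (median 0.67). The ubiquitin/ribosomal S27a fusion DICSQDRAFT_65828 was at 0.64 ± 0.071 and ribosomal protein S25 DICSQDRAFT_135337 at 0.57 ± 0.079, both calls lost with each substrate as 1 replicate (adjusted p = 0.0997 and 0.0967). Terpene and sterol synthesis had 29 of 43 higher and 5 lower (median 0.94). C-4 methyl sterol oxidase (DICSQDRAFT_61779) was at 496 and 513 RPKM in the spruce libraries, 585 and 669 in aspen, 78.7 and 74.9 in wheat bran, and 69.7 and 70.9 in cotton seed hulls (2.64 ± 0.086, adjusted p = 3.56e-10), and farnesyl-diphosphate synthase (DICSQDRAFT_113606), which makes the common precursor, at 1.60 ± 0.12. Glycolysis had 15 of 25 higher and 6 lower (median 0.62), with enolase DICSQDRAFT_96763 at 1.05 ± 0.086. Glyceraldehyde-3-phosphate dehydrogenase DICSQDRAFT_183206 was at 0.79 ± 0.098 and had an adjusted p of 0.0902 with each substrate as 1 replicate. Heat shock proteins and chaperones had 15 of 24 higher and 2 lower (median 0.66), yet the most abundant, small heat shock protein DICSQDRAFT_109568, was at 1144 and 1539.6 RPKM in the spruce libraries, 779.8 and 842 in aspen, 18485 and 11272 in wheat bran, and 2528 and 2333 in cotton seed hulls (-2.82 ± 0.18, adjusted p = 6.33e-07, and adjusted p = 0.0563 with each substrate as 1 replicate). Wheat bran held its highest level (contrast with cotton seed hulls 2.37 ± 0.25, adjusted p = 2.05e-04). Genes of DNA replication and histones had 10 of 19 higher and 1 lower (median 0.39). Of 12 housekeeping genes 9 were higher and 2 lower (median 0.40), and elongation factor 1a DICSQDRAFT_46769 was at 2900.2 and 3015 RPKM in the spruce libraries, 2608 and 2421 in aspen, 1976 and 1957 in wheat bran, and 1835 and 1857 in cotton seed hulls (0.22 ± 0.09, adjusted p = 0.0481). Its call was lost without any 1 of the wheat bran or cotton seed hulls libraries.

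Enzymes of oxalate and formate, which white-rot fungi use to bind metals and recycle carbon, had 6 of 9 members lower on wood and 2 higher (median -1.52). Only 2 of the 6 were agreeing, the 2 described next. With each substrate as 1 replicate 3 members were lower. The median was -1.71 for spruce against wheat bran but -0.56 for aspen against cotton seed hulls. NAD-dependent formate dehydrogenase (DICSQDRAFT_51840), which oxidises formate to carbon dioxide, was at 2056 and 2333 RPKM in the spruce libraries, 1178 and 955 in aspen, 5785 and 6052 in wheat bran, and 3621 and 3407 in cotton seed hulls (-1.87 ± 0.11, adjusted p = 3.17e-08). Glyoxylate dehydrogenase (DICSQDRAFT_183166), which makes oxalate, was at 268 and 291 RPKM in the spruce libraries, 61.6 and 102 in aspen, 753 and 792 in wheat bran, and 856 and 878 in cotton seed hulls (-2.73 ± 0.17, adjusted p = 6.94e-07). Both were lower on aspen than on spruce (contrasts 0.83 ± 0.14, adjusted p = 0.00393 and 1.55 ± 0.23, adjusted p = 0.00323), and every wood library lay below every non-woody one. In the glyoxylate and citric acid cycle 9 of 17 genes were higher and 4 lower (median 0.20), and in fatty acid oxidation 8 of 20 were higher and 9 lower (median 0.03). Pentose, galacturonate and galactose catabolism had 3 of 6 higher and 2 lower (median 0.17).

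**Figure D3:**
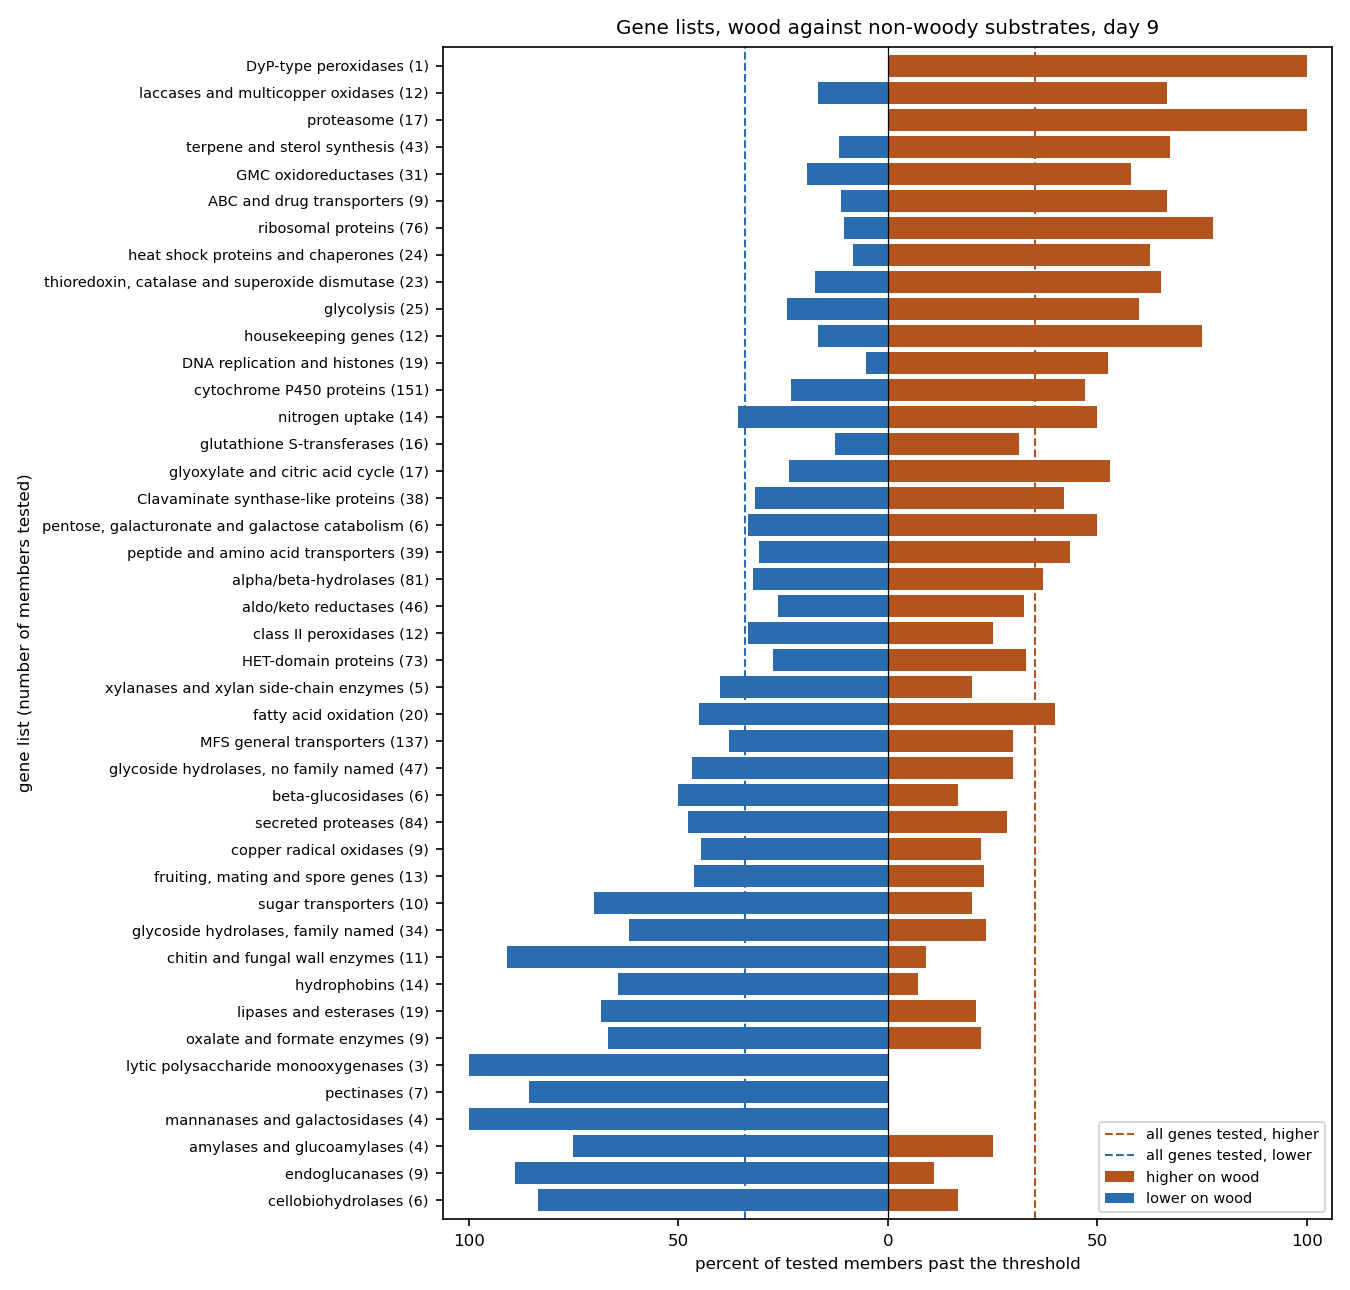
Percent of tested members called higher (right) or lower (left) on wood for 43 gene lists, with the number tested in brackets; dashed lines mark 35.1 % and 34.0 % of all genes. Of genes with an informative description, 41.68 % are higher and 30.04 % lower, which the lines do not mark. All 17 proteasome genes are higher, and 8 of 9 endoglucanases are lower.

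**Figure D4:**
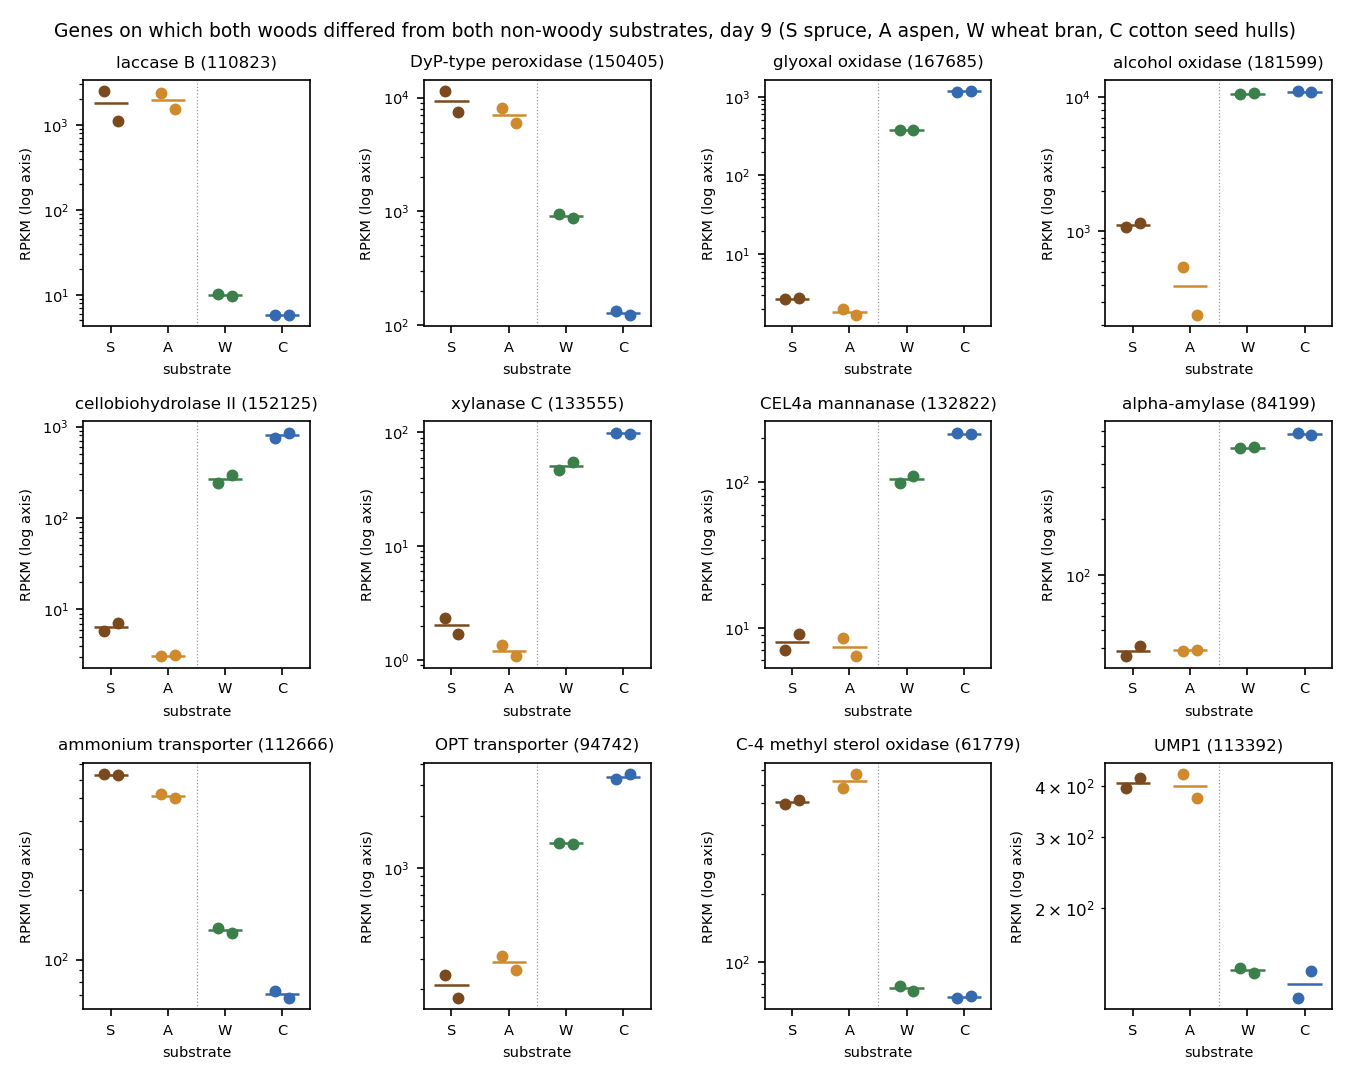
RPKM (log axis) of 12 genes in which both woods differed from both non-woody substrates; points are libraries, bars substrate means. Laccase B lies at 1114 to 2498 RPKM on wood and at most 10.2 RPKM on non-woody substrates, and alcohol oxidase is lower on wood than elsewhere.

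In a small set of genes a single substrate stood apart from the other 3. A gene counted as set apart when it was called against each of the other 3 substrates in 1 direction with at least 2-fold change. Those 3 also had to differ from each other by less than 0.5 in log2 after composition scaling, which RPKM lacks. Both conditions held for 113 genes (1.09 %). Of these, 6 were higher on spruce, and 14 higher and 9 lower on aspen. On wheat bran 9 were higher and 10 lower, and on cotton seed hulls 17 were higher and 48 lower. A WD40 repeat-like protein (DICSQDRAFT_155969) was at 82.2 and 105 RPKM in the spruce libraries, 39.2 and 39.2 in aspen, 36.0 and 35.0 in wheat bran, and 30.6 and 30.4 in cotton seed hulls, so that spruce alone was high. D-lactaldehyde dehydrogenase (DICSQDRAFT_53500) was at 5.67 and 7.67 RPKM in the spruce libraries, 20.4 and 31.0 in aspen, 3.60 and 4.58 in wheat bran, and 3.98 and 3.02 in cotton seed hulls, with aspen high. A GroES-like protein (DICSQDRAFT_54950) was at 156 and 152 RPKM in the spruce libraries, 147 and 125 in aspen, 29.4 and 26.7 in wheat bran, and 88.6 and 74.2 in cotton seed hulls, with wheat bran low. A methyltransferase (DICSQDRAFT_179178) was at 53.5 and 36.5 RPKM in the spruce libraries, 34.7 and 30.4 in aspen, 29.3 and 29.1 in wheat bran, and 6.72 and 4.13 in cotton seed hulls, with cotton seed hulls low. All 4 genes were called for wood against non-woody, and DICSQDRAFT_54950 was also agreeing, but each call was lost with substrates as replicates (adjusted p = 0.278, 0.184, 0.164 and 0.242).

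**Figure D5:**
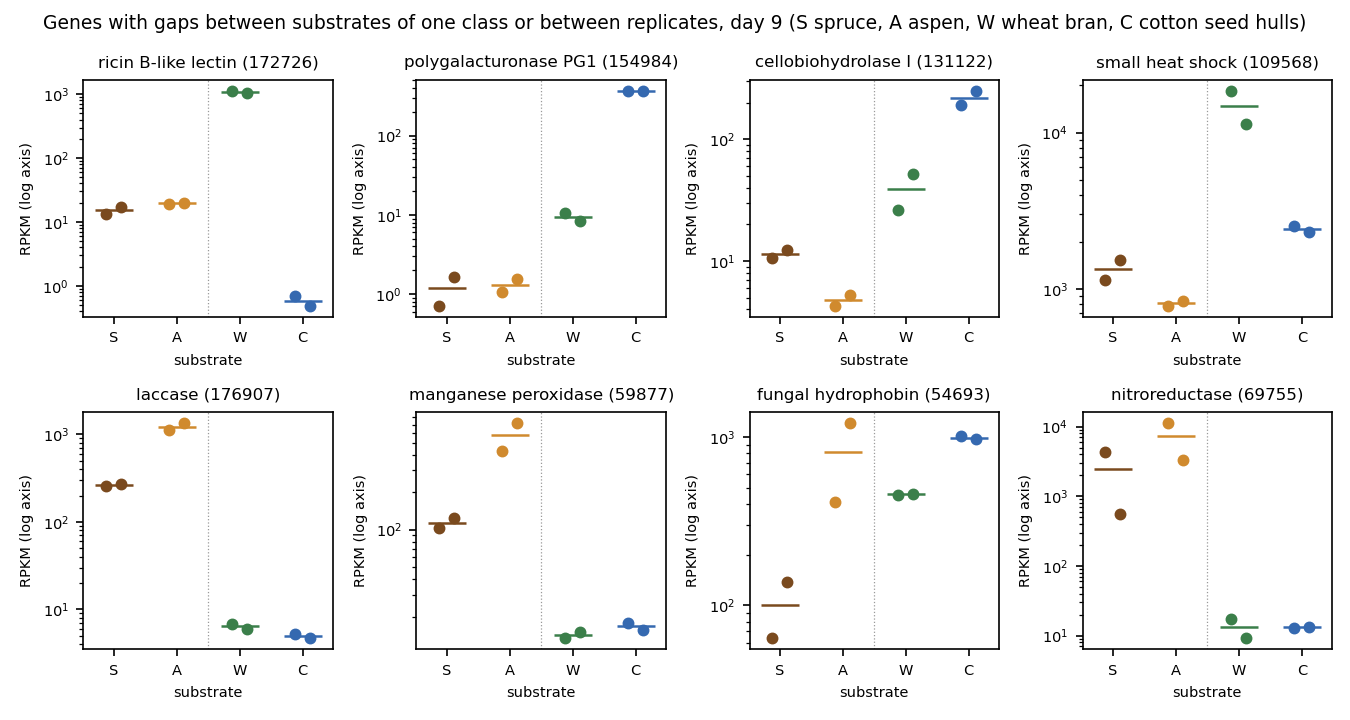
RPKM (log axis) of 8 genes with gaps between substrates of a class or between replicates; points are libraries, bars substrate means. Ricin B-like lectin DICSQDRAFT_172726 is at 13.2 to 19.7 RPKM on wood, between wheat bran and cotton seed hulls.

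The agreeing genes with at least a 2-fold smallest contrast were followed to day 16, in a separate fit of the 8 day 16 libraries. Of the 840 that were higher on day 9, 821 were tested and 417 (50.8 %) were agreeing in the same direction on day 16, against 12.1 % of all 10481 genes tested there. The opposite direction was agreeing for 3. Of the 792 that were lower, 410 (51.8 %) were agreeing in the same direction against 13.5 % of all genes, and 12 in the opposite one. Median changes were 2.20 on day 9 and 1.01 on day 16 for the first set, and -2.08 and -0.87 for the second. The genes were selected on day 9, and the difference between the days was not tested.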

How the data were processed

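mRNA libraries of 8 day 9 samples were analysed, 2 per substrate, and the 8 day 16 libraries were fitted separately in the same way. Per the file headers, the authors deposited for each gene model the count of unique reads and the RPKM, with a description from a protein database search. For the aligner, counting tool, genome build and strand setting, the sources used here give no name, so that overlapping genes cannot be told apart. The deposited counts summed to the stated library totals, and the RPKM could be recomputed from them. Genes missing from a file were taken as 0 reads, and plant RNA was not measured, since all features are fungal gene models.

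The counts were tested with edgeR 4.0.16 (R 4.3.3) by its two-sided quasi-likelihood F-test with robust dispersion, TMM scaling and 1 mean per substrate on the 8 libraries (4 residual degrees of freedom). filterByExpr (minimum count 10, minimum total 15) left 10383 genes and removed 986. Adjusted p values are Benjamini-Hochberg values over these genes. The scripts were tested on simulated data in which few genes changed. That test does not cover the scaling of libraries where most genes differ. Standard errors were derived from the log2 fold change and F. The 43 gene lists are patterns in the descriptions; members, lists and rules were chosen with earlier results of these data known. Descriptions were informative for 4452 of 11410 genes, and 11371 identifiers matched the locus tags of the reference list.

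Named genes are, among agreeing genes free of RPKM overlap with a mean of at least 10 RPKM on the higher side, the 12 described ones in each direction with the largest smallest contrast, the 6 described ones with the highest level among those of at least 2-fold, and the 1 undescribed gene ranked as the 12. The 2 most abundant members of each list were counted as named whether or not they met these conditions. So were, for each substrate, up to 3 described genes set apart by it with at least 10 RPKM. Not every named gene is described above, and those described are not an unselected sample of them. DICSQDRAFT_175886, DICSQDRAFT_35913, DICSQDRAFT_24343, DICSQDRAFT_172726 and the genes on opposite sides were chosen after their values were seen. Alternatives were other scaling (DESeq2 size factors, library size alone), DESeq2 1.42.0, no filter, all 16 libraries, a replicate block, limma 3.58.1 on log2(RPKM + 1) and log2(RPKM + 0.1), no robust estimation, substrates as replicates, a threshold of 0.01, leaving out each library and, added after seeing the data, limma-voom with a spread for each class.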

Additional observations from a re-analysis of the deposited data

Results flagged for a closer look

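Genes on which the substrates of a class lay on opposite sides of the other class were singled out by the tests of single contrasts, each at an adjusted p under 0.05 from edgeR's quasi-likelihood test. Spruce lay above and aspen below both non-woody substrates in 2 genes, of which the Het-C-domain protein DICSQDRAFT_96186 was at 60.0 and 60.0 RPKM in the spruce libraries, 24.6 and 18.8 in aspen, 38.7 and 34.4 in wheat bran, and 28.4 and 23.5 in cotton seed hulls. Aspen lay above and spruce below both in 5 genes, among them a chloroperoxidase-like protein (DICSQDRAFT_113070) at 44.8 and 46.9 RPKM in the spruce libraries, 84.8 and 96.8 in aspen, 69.1 and 69.7 in wheat bran, and 53.8 and 54.8 in cotton seed hulls. The other 4 of these 5 are a mitochondrial carrier (DICSQDRAFT_137031), an undescribed gene (DICSQDRAFT_155961), a glycoside hydrolase (DICSQDRAFT_172826) and an aryl-alcohol oxidase (DICSQDRAFT_96414). The sides are those of the composition-scaled contrasts, and RPKM of a wood and a non-woody substrate can overlap.

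Both woods lay above wheat bran and below cotton seed hulls in 9 genes, and below wheat bran and above cotton seed hulls in 15. The ricin B-like lectin DICSQDRAFT_172726 of the latter was at 13.2 and 17.1 RPKM in the spruce libraries, 19.3 and 19.7 in aspen, 1129 and 1050.4 in wheat bran, and 0.689 and 0.482 in cotton seed hulls. Wheat bran was higher than cotton seed hulls by 10.55 ± 0.22 on the log2 scale (adjusted p = 4.58e-10), while the mean of the woods against the mean of the non-woody substrates was -0.88 ± 0.26, adjusted p = 0.043. These genes were chosen after their values were seen.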

How the results depend on the processing

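The counts of called genes, agreeing genes and genes set apart stayed within 1.5 times the reported ones except as follows. Of 3531 genes called lower, 2313 were called with library size alone, 2303 with limma on log2(RPKM + 1) and 2287 on log2(RPKM + 0.1), and of 1929 agreeing lower genes 1137, 1124 and 1108. These 3 settings use no composition scaling. With substrates as replicates 2813 genes were called (1471 higher, 1342 lower). Genes set apart, 113 as reported, stayed within 1.5 times at 145 with limma on log2(RPKM + 0.1), and went beyond it only without wheat bran replicate 2. Leaving out 1 library, they ranged from 75 without wheat bran replicate 2 to 124 without aspen replicate 1, called genes numbered 6562 to 7130 and agreeing genes 3113 to 3865, of which the higher ran from 1556 to 2012 and the lower from 1557 to 1853.

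Agreeing genes shared with the reported 3902 were 78.3 to 99.6 % of them across settings. Deviations of libraries with the same replicate number correlated by 0.374 between spruce and aspen, so that the woods deviated together, but by -0.00456 to 0.0449 in the other 5 pairs. Since not every pair did, the numbers were not taken to pair the 8 samples. Whether the wood libraries shared a harvest or extraction was not tested. A replicate block called 3725 genes higher and 3595 lower and kept 3886 of the agreeing genes, and changed no call of a named gene. Across 124 named genes, 2230 of 2356 values kept direction and call, 89 lost the call, 19 gained it and 18 changed sign. The sign changes were in 6 genes with library size alone, limma on log2(RPKM + 1) and limma on log2(RPKM + 0.1): DICSQDRAFT_176390 (0.0854, 0.0800 and 0.0807), DICSQDRAFT_131703 (0.22, 0.22 and 0.22), DICSQDRAFT_113070 (0.0712, 0.0693 and 0.0693), DICSQDRAFT_137031 (0.30, 0.28 and 0.30), DICSQDRAFT_155961 (0.20, 0.20 and 0.20) and DICSQDRAFT_96414 (0.28, 0.27 and 0.28). The cause of the calls lost was not tested.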
